A study of Mus musculus with 6 samples.

Results

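The mu-class glutathione transferases are 7 genes in the mouse, Gstm1 to Gstm7, and all 7 were measured, out of 19938 genes read from 6 expression arrays. The members were chosen by gene symbol. Each gene was read from the probe set that named it alone and was brightest over all arrays, and no probe set was shared between a member and another symbol. The family was picked from earlier results of these data because Gstm5 stood near the top of the genes higher in primed cells. The difference of Gstm5 is therefore given as a description, with no test, and the other 6 members were read from the test over all genes.

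Glutathione transferases join the tripeptide glutathione to reactive, often fat-soluble chemicals, which makes them easier to export. The soluble classes (alpha, mu, pi, theta, omega, zeta and sigma) work as dimers, and the mu class handles epoxides, quinones and products of lipid oxidation. In the mouse the mu-class genes lie side by side on chromosome 3. Their products are best known from liver, where they are abundant, and several Gstm genes are induced through NRF2, the transcription factor that answers electrophile and oxidant stress by binding antioxidant response elements.

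The arrays held total RNA of mouse induced pluripotent stem cells (iPSCs, made by reprogramming fibroblasts), from 3 primed and 3 naive cultures. Primed cells were kept in fibroblast-conditioned medium with basic FGF at 8 ng/ml, on feeders or matrigel. Naive cells were kept in DMEM and 15% fetal bovine serum with non-essential amino acids, glutamine, pyruvate, 55 µM beta-mercaptoethanol and LIF at 1000 U/ml. The cell type label gives the culture state. According to the titles the primed line came from adult dermal fibroblasts and the naive line from embryonic fibroblasts, while the source label says embryonic fibroblasts for both, so culture state and origin cannot be told apart. No label used here gives a strain, a genotype, a sex, the number of lines, or an age beyond the adult or embryonic origin. The titles call the replicates biological, but the spread behind each p-value is that of these cultures alone, which may be technical. Values are log2 RMA (robust multi-array average) values and differences are primed minus naive. A probe set's level says nothing of its gene's level relative to another gene.

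Replicate arrays correlated over genes at r of 0.9982 to 0.9988, and arrays of different groups at 0.9796 to 0.9801. Of 10 pluripotent cell markers, 7 were lower in primed cells and 3 did not pass, with a summed linear level of 31167 to 32485 on primed and 44509 to 45412 on naive arrays. Of all genes tested, 22.7% were lower in primed cells and 21.8% higher. Pou5f1 averaged 11.53 ± 0.07 in primed and 12.59 ± 0.05 in naive cells (SD, n = 3 each), and L1td1 and Tdgf1 differed by -0.96 and -0.80. Dppa5a averaged 6.66 ± 0.25 in primed cells, where it lay in background, and 8.17 ± 0.14 in naive cells (SD, n = 3 each). Zfp42, a marker of naive cells, lay in background in both groups. In bulk RNA, fewer cells of a type and less RNA per cell cannot be told apart. Background was set on each array from 1194 odorant and pheromone receptor genes, whose 95th percentile was 6.96 to 7.02. A group counted as in background where all 3 of its arrays were below that value. The array medians of tested genes were 8.35 to 8.38 in primed and 8.28 to 8.29 in naive cells.

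The 7 genes differed in both directions. Gstm5 and Gstm7 were higher in primed cells, Gstm6 did not pass the test, and Gstm1, Gstm2, Gstm3 and Gstm4 were lower in primed cells. The differences spanned 5.69 log2 units, from -2.26 for Gstm4 to 3.43 for Gstm5. The upper end is the gene the family was chosen for, and the other 6 members ran from -2.26 to 0.62 (Gstm7). Among the 6 members other than Gstm5, 1 was higher in primed cells and 4 were lower at a limma adjusted p under 0.05, where 21.8% of all genes were higher and 22.7% lower (44.5% in either direction). With each array centred on its median, 3439 of all genes were higher and 6325 lower, against 4347 and 4529 as deposited, and the members' counts were the same. Of genes above background in at least 1 group, 27.8% were higher and 28.8% lower (56.6% in either direction). The groups did not overlap for 5 of these 6 members, for 52.9% of all genes and for 65.4% of genes above background. A difference of at least 2-fold that also passed was found for 3 of these 6 members and for 3.55% of all genes. The median absolute difference over the 6 members was 1.27, against 0.14 over all genes and 0.20 over genes above background in at least 1 group.

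**Figure D1:**
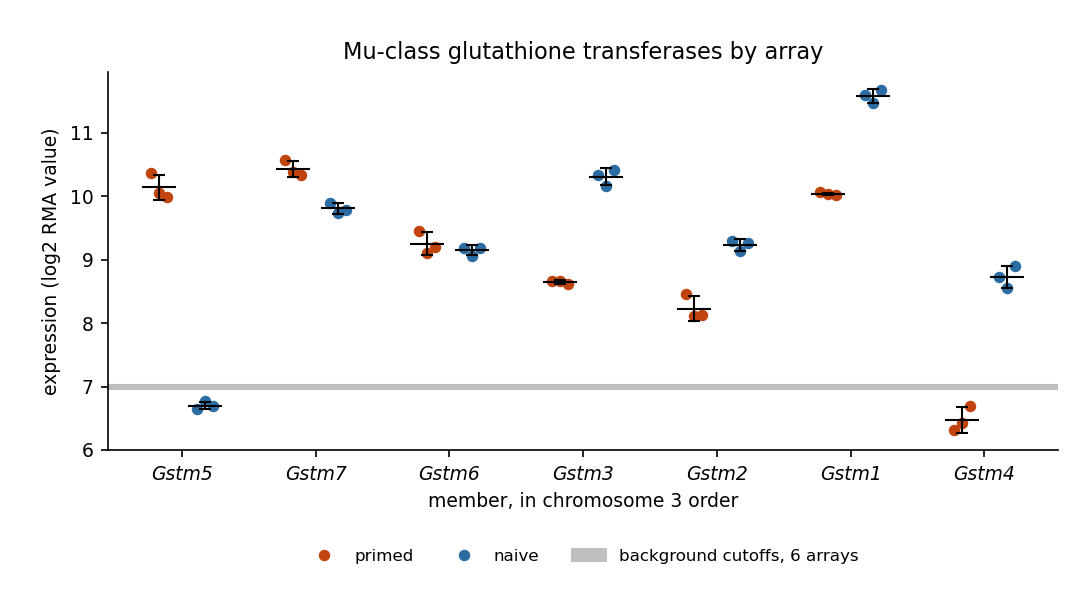
Log2 RMA values of the 7 members on each array, in chromosome 3 order, primed left of naive within each gene; points are arrays, black bars the mean and SD of 3 arrays, and the grey band spans the background cutoffs (6.96 to 7.02). Gstm5 in naive cells and Gstm4 in primed cells lie below the band, and only the Gstm6 groups overlap.

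Gstm5 encodes the mu-class enzyme best known from brain and testis, whose human counterpart is named GSTM3. It read 10.37, 10.06 and 9.99 on primed arrays and 6.65, 6.77 and 6.69 on naive arrays. Every primed array was far above every naive one, and all 3 naive values lay in background. The means were 10.14 ± 0.20 in primed and 6.70 ± 0.06 in naive cells (SD, n = 3 each), a difference of 3.43 (SE 0.09). Set against the background cutoffs of the naive arrays, the primed level was at least 8.81-fold higher. With the cutoff at the 90th percentile of receptor genes the naive group no longer counted as in background.

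Gstm7, the next member along the chromosome, gave 10.57, 10.39 and 10.33 on primed arrays and 9.90, 9.73 and 9.79 on naive arrays. The groups did not overlap, but the rise was far smaller than that of Gstm5 (0.62, SE 0.07, limma adjusted p = 2.3e-05), or 1.54-fold. Unlike Gstm5, Gstm7 was above background in both groups.

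Gstm6 read 9.45, 9.11 and 9.20 on primed arrays and 9.19, 9.06 and 9.19 on naive arrays. Its groups overlapped, and the difference of 0.10 (SE 0.08) did not pass (adjusted p = 0.35). The 95% interval of this difference ran from -0.08 to 0.29.

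Gstm4 was at the other extreme. It read 6.31, 6.42 and 6.69 on primed arrays and 8.72, 8.56 and 8.90 on naive arrays. Here the primed values were the ones in background, a mirror image of Gstm5. The means were 6.47 ± 0.20 in primed and 8.73 ± 0.17 in naive cells (SD, n = 3 each), a difference of -2.26 (SE 0.10, adjusted p = 1.7e-08). Against the cutoffs of the primed arrays the naive level was at least 3.33-fold higher, and the primed group left background with the cutoff at the 90th percentile.

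Gstm1, the mu-class enzyme most studied in mouse liver, read 10.07, 10.04 and 10.02 on primed arrays and 11.60, 11.47 and 11.68 on naive arrays. It was above background in both states and lower in primed cells on every array (-1.54, SE 0.06, adjusted p = 5.5e-09), with a naive level 2.91-fold that of primed cells. Gstm2, whose human counterpart detoxifies quinones made from dopamine, read 8.46, 8.11 and 8.13 on primed arrays and 9.29, 9.13 and 9.26 on naive arrays. Its groups were apart as well, at 8.23 ± 0.20 in primed and 9.23 ± 0.09 in naive cells (SD, n = 3 each). The naive level was 1.99-fold that of primed cells, the smallest difference of the 4 lower members (SE 0.09 on the log2 scale, adjusted p = 3.5e-06).

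Gstm3 was the only member with more than 1 probe set. RefSeq lists mGSTM5 as a synonym of this gene, which is not the Gstm5 described above. The brighter probe set read 8.67, 8.66 and 8.61 on primed arrays and 10.34, 10.17 and 10.42 on naive arrays. The other read 7.76, 7.38 and 7.62 on primed arrays and 9.54, 9.14 and 9.46 on naive arrays. Both placed all primed arrays below all naive ones, with differences of -1.66 (SE 0.07, adjusted p = 5.7e-09) and -1.80. Genes were placed on the chromosome by their RefSeq position, and where either probe set itself lies was not checked. The coding sequences of the Gstm genes are closely related, and how far probes of 1 member also bind RNA of another was not tested.

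Primed replicate 1 was the highest of its group for 6 of the 7 members, with Gstm4 the exception, and for 46.1% of all genes. Naive replicate 2 was the lowest of its group for 6 of the 7, with Gstm5 the exception, and for 35.3% of all genes. The other arrays showed no such majority among the members but for naive replicate 3 (highest for 4) and primed replicate 3 (lowest for 4). For these counts of 4 the share over all genes was not computed, and nothing is read from them. The exceptions, Gstm4 in primed and Gstm5 in naive cells, were the members in background in that group. Deviations from the group mean were at most 0.23 in size, well below the differences of Gstm1 to Gstm5, and no call of the 6 tested members ended when any 1 array was left out.

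**Figure D2:**
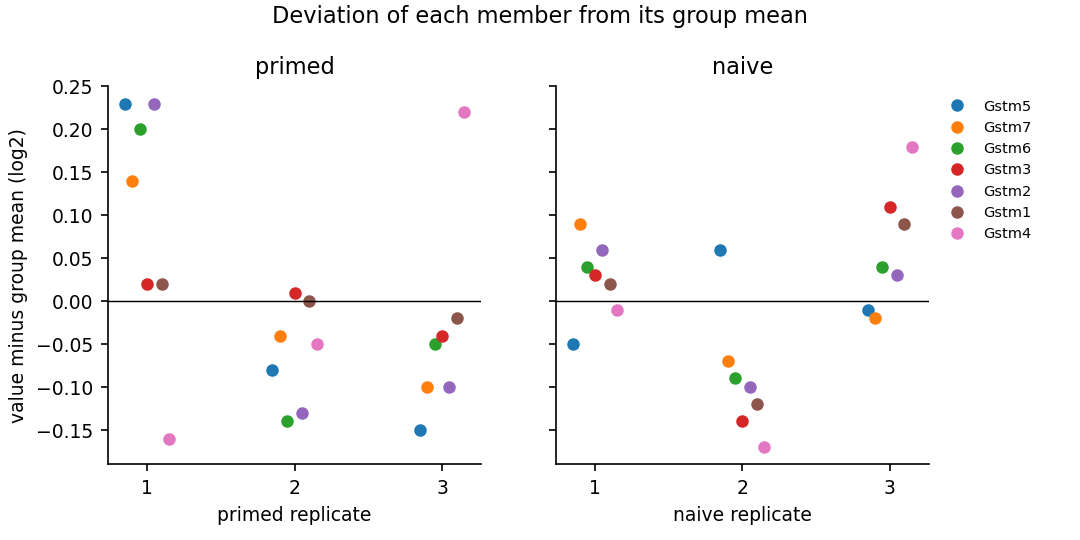
Deviation of each member from its group mean on every array (log2), primed replicates left and naive replicates right, 1 colour per member. Most members sit above the line in primed replicate 1 and below it in naive replicate 2, with deviations of at most 0.23.

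In the RefSeq gene order of assembly GRCm38.p6 the 7 members follow each other as Gstm5, Gstm7, Gstm6, Gstm3, Gstm2, Gstm1 and Gstm4, with no other tested gene between them. In this order the 3 members at the Gstm5 end had differences of 3.43, 0.62 and 0.10, and the 4 at the Gstm4 end were all lower in primed cells. Gstm5 was chosen for its difference and Gstm6 did not pass, which leaves Gstm7 as the only tested member called higher. A link between gene order and direction was not tested. The size was not graded among these 4: Gstm3 differed by -1.66, Gstm1 by -1.54 and Gstm4 by -2.26, with Gstm2, between Gstm3 and Gstm1, nearer to 0. Whether neighbouring members differ from each other was not tested. Gstm5 is also set apart by strand: it lies on the plus strand and the other 6 lie on the minus strand.

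The start regions of Gstm5 and Gstm7, higher in primed cells, and of Gstm1 and Gstm4, lower in them, are printed from the RefSeq promoter table (GRCm38.p6), to set the letters around the Gstm5 start beside those of its family. Each window runs from 250 bases before to 50 bases after an annotated start, 5′ to 3′ on the gene's strand. Capitals mark every match, on either strand, to TATAAA, to the GC box GGGCGG, to the CCAAT box, and to the core of the antioxidant response element, TGACNNNGC. The windows are chr3:107895604-107895903 on the plus strand for Gstm5, and on the minus strand chr3:107931768-107932067 for Gstm7, chr3:108017769-108018068 for Gstm1 and chr3:108044810-108045109 for Gstm4. Gstm1, Gstm7 and Gstm4 have 2 windows each in the table, of which the second is shown for Gstm1 and the first for the others.
Gstm5: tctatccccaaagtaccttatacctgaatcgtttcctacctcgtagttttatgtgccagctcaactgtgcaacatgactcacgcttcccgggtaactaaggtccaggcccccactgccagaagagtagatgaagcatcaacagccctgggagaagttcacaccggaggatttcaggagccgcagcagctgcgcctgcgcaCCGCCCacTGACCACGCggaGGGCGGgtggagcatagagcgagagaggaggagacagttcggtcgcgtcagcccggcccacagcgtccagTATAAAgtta
Gstm7: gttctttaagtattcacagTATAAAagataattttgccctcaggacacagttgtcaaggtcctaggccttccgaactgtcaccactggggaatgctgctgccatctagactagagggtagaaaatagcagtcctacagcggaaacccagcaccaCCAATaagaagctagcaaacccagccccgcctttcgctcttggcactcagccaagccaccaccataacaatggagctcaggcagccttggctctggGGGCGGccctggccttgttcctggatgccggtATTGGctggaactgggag
Gstm1: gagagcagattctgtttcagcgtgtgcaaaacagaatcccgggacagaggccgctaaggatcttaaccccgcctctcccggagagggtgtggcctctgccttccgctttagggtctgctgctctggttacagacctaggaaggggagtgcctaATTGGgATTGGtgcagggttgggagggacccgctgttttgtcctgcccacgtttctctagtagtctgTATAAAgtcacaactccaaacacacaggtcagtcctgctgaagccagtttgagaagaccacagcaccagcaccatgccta
Gstm4: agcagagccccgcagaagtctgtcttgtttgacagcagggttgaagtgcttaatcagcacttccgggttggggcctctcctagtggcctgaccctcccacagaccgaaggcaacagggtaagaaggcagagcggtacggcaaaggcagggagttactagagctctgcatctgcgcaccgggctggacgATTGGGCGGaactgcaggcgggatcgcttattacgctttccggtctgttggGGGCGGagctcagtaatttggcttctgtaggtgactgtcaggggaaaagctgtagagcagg

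The Gstm5 window held 18 CpG dinucleotides, more than any of the other 11 windows of the family, which held 3 to 14. The median over all 32851 windows in the table was 7, and 29.7% of them held at least as many as Gstm5. Its window had the antioxidant core as TGACCACGC at bases 209 to 217, between a pair of GC boxes, and TATAAA only after the annotated start. Over all windows of each gene, the antioxidant core occurred in 2 of 7 members (Gstm5 and Gstm7) and in 14% of 27025 genes. The Gstm7 match lies in its second window, which is not printed, and the printed Gstm7 window has none. The 7 members had 12 windows and the 27025 genes 32851, so the members had more windows per gene. The GC box occurred in 4 of 7 members (Gstm3, Gstm4, Gstm5 and Gstm7) and in 38.2% of genes, and the CCAAT box in 5 of 7 (all but Gstm3 and Gstm5) and in 41.1% of genes. TATAAA occurred in 3 of 7 members (Gstm1, Gstm5 and Gstm7) and in 15.7% of genes. In Gstm4 the CCAAT match and the first GC box overlap. The longest run of bases shared by windows of any pair of members was 16, between Gstm1 and Gstm3, and the longest shared by Gstm5 and another member was 10. A match is a description of letters, and binding was not measured.

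To see whether the rise of Gstm5 was shared by its surroundings, 10 tested genes on each side of the family were read. Of these 20 neighbours, 7 were higher in primed cells, 6 were lower and 7 did not pass (limma adjusted p), against 21.8% and 22.7% of all genes. Their median difference was 0.06, against -0.00 over all genes, and their median absolute difference was 0.17. The largest absolute difference among them was 1.75. On the Gstm5 side 2 were higher, 2 lower and 6 did not pass, with a median of 0.04. On the Gstm4 side 5 were higher, 4 lower and 1 did not pass, with a median of 0.15. Quantile normalization gave 8 higher and 4 lower neighbours, and centring on medians gave 5 higher and 6 lower.

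**Figure D3:**
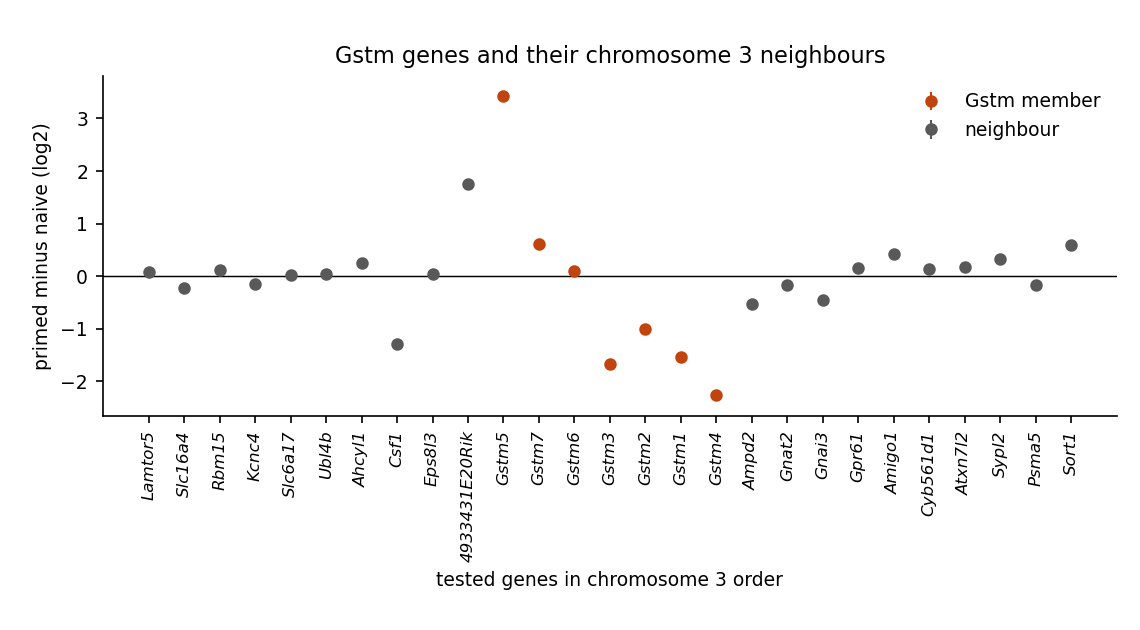
Primed minus naive differences (log2) of the 7 Gstm members (orange) and of 10 tested genes on each side (grey) in chromosome 3 order; SE bars are shorter than the points. Gstm5 (3.43) and its neighbour 4933431E20Rik (1.75) stand above the rest, and the points from Gstm3 to Gstm4 lie below 0, down to -2.26.

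The neighbour with the largest difference was the one next to Gstm5. 4933431E20Rik is a long non-coding RNA gene on the minus strand, and its annotated start lies inside Gstm5, so that the 2 genes overlap on opposite strands. It read 8.32, 8.22 and 7.96 on primed arrays and 6.47, 6.33 and 6.44 on naive arrays. As with Gstm5, the naive values lay in background and the groups were far apart (1.75, SE 0.09, adjusted p = 2.7e-08). Whether the probes of either gene also read RNA of the other was not tested. The gene beyond it, Eps8l3, an adaptor protein gene whose span overlaps the other end of 4933431E20Rik, did not pass, with 7.30 ± 0.15 in primed and 7.26 ± 0.09 in naive cells (SD, n = 3 each).

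Csf1, the gene for macrophage colony-stimulating factor, lies 1 gene further out and went the other way, with 7.68, 7.97 and 7.79 on primed arrays and 9.12, 9.06 and 9.09 on naive arrays (-1.28, SE 0.07, adjusted p = 7.6e-08). On the Gstm4 side the nearest gene was Ampd2, an AMP deaminase, which was lower in primed cells by a smaller margin than Gstm4 (-0.53, SE 0.06, adjusted p = 1.5e-05). Gnat2, the cone transducin subunit, differed by -0.17 (adjusted p = 0.046), which no longer passed when naive replicate 3 (adjusted p = 0.2) or any primed replicate (adjusted p of 0.05 to 0.14) was left out. Sort1, a sorting receptor, was higher in primed cells by 0.60 (SE 0.06, adjusted p = 4.1e-06). Lower neighbours numbered 3 without primed replicate 2 and 3 without naive replicate 3, against 6 with all arrays.

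Set against the differences of its 20 neighbours, whose median was 0.06, that of Gstm5 was larger by 3.37. The median level of the neighbours was 8.60 ± 0.01 on primed and 8.82 ± 0.04 on naive arrays (SD, n = 3 each), a shift of -0.22, and with this shift taken off, the Gstm5 difference was 3.65. The first value uses the median of the neighbours' differences and the second the difference of their median levels. The mean level of the neighbours went the other way, at 8.96 to 8.99 on primed and 8.90 to 8.93 on naive arrays. The shift of -0.22 therefore belongs to the median level and does not mean that the neighbours fell as a set. Since the naive Gstm5 values lay in background, neither is an exact size. Gstm5 was chosen for its difference, and no test was made of them.

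Other genes with a pattern close to that of Gstm5 were sought over the 6 arrays, as the root mean square distance between values centred on each gene's own mean. The 5 closest were Fv1 (0.12), a retrovirus restriction gene, Kdm5d (0.18), a histone demethylase gene of the Y chromosome, Rarb (0.18), a retinoic acid receptor gene, Gatm (0.21), for the first enzyme of creatine synthesis, and Tdrkh (0.22), of the piRNA pathway. Each was higher in primed cells by 3.08 to 3.81. Kdm5d and Gatm were, like Gstm5, in background in naive cells, while Fv1, Rarb and Tdrkh were not. Kdm5d averaged 9.06 ± 0.02 in primed and 5.81 ± 0.16 in naive cells (SD, n = 3 each). Whether the groups differ in sex or in the presence of a Y chromosome was not tested. Such a difference could not be told apart from culture state. With 2 groups of arrays this measure mostly finds genes with a difference of like size. By the same measure 4933431E20Rik was at 0.85, Gstm7 at 1.41 and Gstm4 at 2.86.

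Transferases of the other soluble classes and of the kappa class had differences between -0.41 and 0.74. Of 16 such genes, 13 were measured (Gsta1, Gsta2 and Gstp2 were not), of which 6 were higher in primed cells, 1 was lower and 6 did not pass, with a median difference of 0.09. After centring on medians 6 were higher and 2 lower. Over all genes as deposited, 21.8% were higher and 22.7% lower, shares that also belong beside the counts of each list below. Gstk1, of the mitochondrial and peroxisomal kappa class, was at 11.23 ± 0.08 in primed and 10.48 ± 0.13 in naive cells (SD, n = 3 each), a rise of 0.74 (SE 0.07, adjusted p = 6.7e-06). Gstz1, the zeta-class enzyme of tyrosine breakdown, rose by 0.73 (adjusted p = 7.3e-07). Gstt2, of the theta class, rose by 0.69 (adjusted p = 4.5e-06). Gsta4, the alpha-class enzyme that clears the lipid aldehyde hydroxynonenal, rose by 0.67 to 12.74 ± 0.03 in primed cells, against 12.07 ± 0.10 in naive cells (SD, n = 3 each).

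Gsto1, an omega-class enzyme that reduces dehydroascorbate, was the 1 soluble enzyme of another class that fell (-0.41, adjusted p = 5.3e-05), while its relative Gsto2 rose by 0.41 (adjusted p = 0.00067). Gstp1, the pi-class enzyme, averaged 12.24 ± 0.16 in primed and 12.37 ± 0.16 in naive cells (SD, n = 3 each) and did not pass (adjusted p = 0.28). Gstp3, Gstt4 and Hpgds lay in background in both groups. Gsta3 differed by -0.14 and passed when arrays were centred on their medians (adjusted p = 0.024) or without naive replicate 3 (adjusted p = 0.04).

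Among the membrane-bound transferases and their relatives (the MAPEG family), 1 of 6 was higher in primed cells, 2 were lower and 3 did not pass, with a median of -0.09. After centring on medians, and without naive replicate 2, 1 was higher and 3 were lower. The added gene was Mgst3 (limma adjusted p = 0.021 and 0.013). Mgst1, the enzyme of the endoplasmic reticulum and outer mitochondrial membrane, read 9.04, 8.70 and 8.73 on primed arrays and 7.45, 7.42 and 7.27 on naive arrays. Its groups were well apart, and the rise of 1.44 (SE 0.09, adjusted p = 1.6e-07) was larger than that of any soluble transferase other than Gstm5. Alox5ap, which presents arachidonic acid to a lipoxygenase, was lower in primed cells (-0.86, adjusted p = 6.9e-06), as was the prostaglandin E synthase gene Ptges (-0.30, adjusted p = 0.0033).

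**Figure D4:**
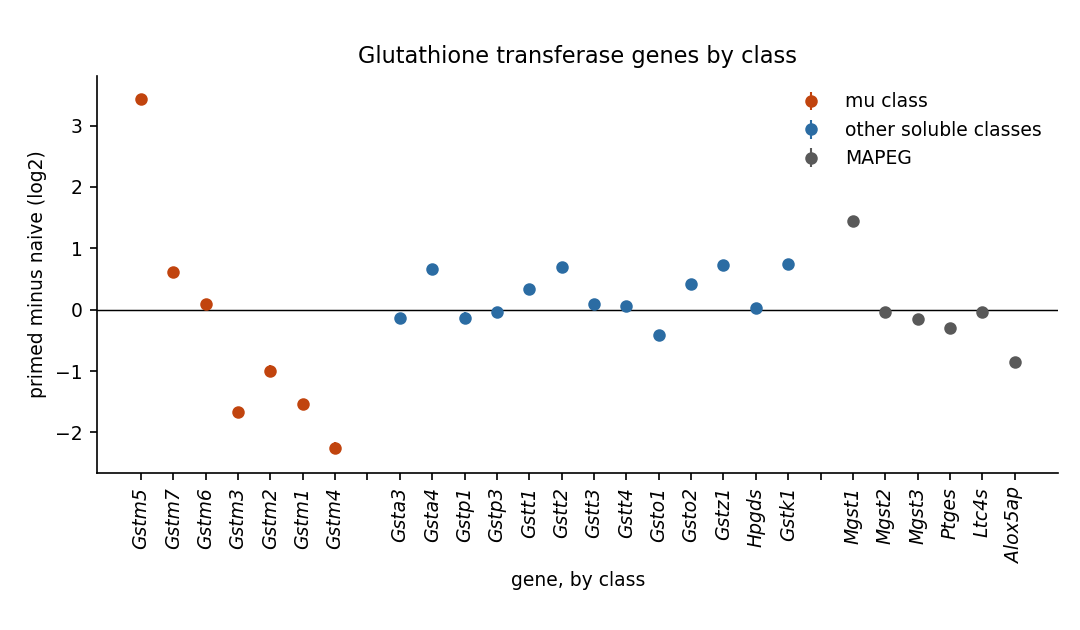
Primed minus naive differences (log2) of the mu-class genes (orange), the other soluble and mitochondrial transferases (blue) and the MAPEG family (grey); SE bars are shorter than the points. The mu class runs from -2.26 to 3.43, and from -2.26 to 0.62 without Gstm5, which was chosen for its difference. The other soluble classes run from -0.41 to 0.74.

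Genes that act before and after conjugation were read next. Of 16 genes that export conjugates or turn them into mercapturates, 14 were measured, and 4 were higher in primed cells, 3 were lower and 7 did not pass (median -0.03). The higher ones numbered 2 without primed replicate 3 or without naive replicate 2, and 1 after centring on medians. Those lost were Abcc2 and Ggt7 in the first cases and Abcc1 as well in the last, and Abcc2 lay in background in both groups. Abcc4, an exporter of the multidrug resistance family, rose by 1.32 (SE 0.06, adjusted p = 1.6e-08), while the exporter gene Abcc5 fell by 0.24 (adjusted p = 0.0025). Anpep, an aminopeptidase, fell by 0.43 (adjusted p = 0.00035) and Acy3, an aminoacylase that acts on mercapturates, by 0.29 (adjusted p = 0.0013). Of 8 measured genes of glutathione supply and breakdown, 3 were higher, 1 was lower and 4 did not pass (median -0.04), and after centring on medians 3 were higher and 3 lower. Chac1, whose enzyme degrades glutathione, was at 11.62 ± 0.10 in primed and 8.68 ± 0.09 in naive cells (SD, n = 3 each). The cystine transporter gene Slc7a11 rose by 0.71, with naive values in background, and Gclc, for the first enzyme of glutathione synthesis, by 0.26, while Oplah, for an enzyme that recycles glutathione breakdown products, fell by 0.23 (adjusted p of 1.6e-05, 0.0017 and 0.011).

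The regulator NRF2, its inhibitor KEAP1 and 10 other genes of that pathway gave 4 higher, 3 lower and 5 not past the threshold of 12, with a median of 0.01. After centring on medians 3 were higher and 4 lower. Quantile normalization gave 5 higher and 3 lower, the added gene being Hmox1 (limma adjusted p = 0.02). With the replicate number as a block 3 were higher and 3 lower, as Ugdh no longer passed (adjusted p = 0.054). Nfe2l2, which encodes NRF2, was at 11.32 ± 0.05 in primed and 11.54 ± 0.06 in naive cells (SD, n = 3 each; adjusted p = 0.0074). Srxn1, a sulfiredoxin, rose by 0.74, Mafg, a partner of NRF2, by 0.41 and Cbr3, a carbonyl reductase, by 0.34, while Pgd, of the pentose phosphate pathway, was lower (-0.62). Nqo1, a classical NRF2 target, averaged 6.91 ± 0.13 in primed and 7.06 ± 0.14 in naive cells (SD, n = 3 each) and did not pass (adjusted p = 0.16), but was called lower after centring (adjusted p = 0.039).

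Markers of other cells were read beside these values, because Gstm genes are also expressed in fibroblasts and liver. Of 15 measured fibroblast and feeder markers, 7 were lower in primed cells, 2 were higher and 6 did not pass. After centring on medians 9 were lower and 2 higher, the added genes being Col3a1 and Prrx1 (limma adjusted p = 0.024 and 0.0084). Postn (among the lower ones), Lum, Fap and Prrx1 lay in background in both groups. The summed linear level of the 15 was 6708 to 7269 on primed and 10320 to 10750 on naive arrays. Acta2 (-1.23), Tagln (-1.09) and Col1a1 (-0.76) were among the lower ones, and Dcn (2.89) was the largest difference in the list, in the direction of Gstm5. The part of these cells in the Gstm values was not tested. Of 8 hepatocyte and endoderm markers, 0 passed in limma and 1 had an unadjusted p under 0.05 (Gata4, picked after its value was seen). Gata4 passed as higher without naive replicate 1 (adjusted p = 0.038), with array weights (adjusted p = 0.034) and with dim genes left out (adjusted p = 0.048), and Sox17 passed as lower after centring (adjusted p = 0.021). Alb, Afp, Ttr and Sox17 lay in background in both groups, and the summed level was 1251 to 1293 on primed and 1236 to 1285 on naive arrays.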

How the data were processed

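The deposited values are log2 values that the authors made with RMA in Partek 6.6, per the submitters' processing notes. RMA options and the genome build: not given in the sources used here. Genes come from GEO's annotation of the platform (21789 probe sets with 1 symbol, 1621 with several, 12146 unnamed here). Of these, 21698 matched RefSeq GRCm38.p6, used for current symbols and gene order. The brightest probe set per gene was kept, giving 19938 genes. Primed and naive arrays were tested gene by gene in limma (version 3.58.1, R 4.3.3) by lmFit and eBayes without covariates, two-sided. P-values were adjusted by Benjamini and Hochberg's method across the whole table, and those under 0.05 were called. Tables were made with Python 3.11.15. On simulated data the fit recovered 22% of planted log2 differences of 0.25, 90% of those of 0.5 and 100% of those of 1 and 2. The simulation changed far fewer genes than were called here, so these shares need not hold for the real arrays. The members and lists were chosen with earlier results of these data known. Beside the members, the rule named the nearest pair of neighbours on each side, the 4 called neighbours with the largest difference, the 4 such genes of each list and the 5 genes closest to Gstm5. Gsto1, Gsto2, Gstp1, Gstp3, Gstt4, Gsta3, Hpgds, Mgst3, Nfe2l2, Nqo1, Hmox1, Ugdh, Zfp42, Abcc1, Abcc2, Ggt7, Col3a1, Gata4, Sox17, the other markers in background and the windows printed were picked after their values were seen. The number of arrays (3 per group) limits the precision. Alternatives were other scalings, a filter on dim genes, the mean over probe sets, another variance prior, weights per array, a block for the replicate number, a stricter threshold, other numbers of neighbours, other background cutoffs and leaving out each array.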

Additional observations from a re-analysis of the deposited data

How the results depend on the processing

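No member changed direction in any alternative, and no call of the 6 tested members changed in those that measured it. Gstm4 was absent when genes under the 40th percentile of mean expression were left out, which gave 3 lower members in place of 4. The balance of the neighbours did turn after centring on medians, with 5 higher and 6 lower, against 7 and 6. The Gstm5 difference ranged from 3.32 to 3.51 and that of Gstm4 from -2.36 to -2.17. Relative to the median level of its neighbours, Gstm5 differed by 3.29 with that filter and by 3.32 with 20 genes on each side, against 3.65, and by 3.55 to 3.72 without each array. Higher neighbours numbered 3 with 5 genes and 15 with 20 genes on each side, against 7 with 10. Lower neighbours numbered 3 at an adjusted p under 0.01, against 6, and 3 to 5 without each array. Lower transferases of other classes numbered 2 after centring on medians and 1 to 2 without each array, against 1; the added gene was Gsta3. With the replicate number as a block, the other members gave 1 higher and 4 lower, and neighbours 6 and 5. Same-numbered arrays correlated in their deviations at -0.109, 0.00151 and -0.0206. These values gave no sign that the numbers pair the cultures, but they cannot show that the cultures were unpaired. Group background calls among members numbered 2, and 0 with the cutoff at the 90th percentile. Dim values and 3 arrays per group limit small differences.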
